A study of Sus scrofa with 4 samples.

Results

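Osteoclasts, the cells that dissolve bone, were followed here in single-cell RNA libraries of regenerated bone from Bama mini-pigs (Sus scrofa). A cell barcode was taken as an osteoclast when it had at least 200 genes, under 20% mitochondrial UMIs and at least 5000 UMIs (unique molecular identifiers, 1 per captured transcript). It also had to hold at least 1 UMI of the protease gene CTSK and of at least 3 of the 6 genes ACP5, ATP6V0D2, CALCR, DCSTAMP, OCSTAMP and SIGLEC15, and none of the lymphocyte genes CD3E and CD79B. This gave 307 osteoclasts among 24526 barcodes that passed the 3 quality limits, and among 54060 barcodes in all. The 1797 libraries held 83 and 150 osteoclasts, and the ctrl libraries 26 and 48.

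The animals were 8 months old. The 2 libraries named 1797 came from pigs given the 1797 peptide and the 2 named ctrl from pigs given a control peptide. The series text also counts further control peptide samples, not analysed here. Regenerated bone was digested with type I collagenase, red cells were lysed, and the suspension was loaded on the 10x Genomics 3′ platform. The labels give no genotype, dose or time, and do not tell whether libraries with the same peptide stem from different pigs, so p-values measure the spread between these libraries only, which may be technical.

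Osteoclasts arise when precursors of the monocyte and macrophage lineage receive the ligands of the receptors CSF1R and RANK (TNFRSF11A), turn on the transcription factor NFATC1 and fuse. The mature cell attaches to bone through the integrin of the ITGAV and ITGB3 subunits, pumps protons into the sealed space with a vacuolar ATPase, and releases proteases that digest the exposed collagen. In regenerating bone they remove and remodel newly formed tissue, and they release factors that act on bone-forming cells.

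Osteoclasts were deeply sequenced. Their median depth was 33910 and 42237 UMIs per barcode in the 1797 libraries, against 25645 and 39562 in the ctrl libraries. The median over all passing barcodes was 8880 to 9742.5 UMIs. When every barcode was first reduced at random to 5000 UMIs, 39 and 74 barcodes (1797) and 11 and 33 (ctrl) met the rule. Many osteoclasts thus met it only at full depth, so their depth is not independent of the rule. Summed over osteoclasts, the 1797 libraries held 2977376 and 6676729 UMIs and the ctrl libraries 719528 and 1885360, so ctrl library 1 is the least precise. The doublet caller Scrublet marked 1813 of 50935 barcodes, 0 of them osteoclasts. Pairs of libraries shared 42 to 63 barcode sequences, and no sequence was an osteoclast in more than 1 library.

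The cells were chosen by the measured UMIs of these genes, whose values are therefore a description. ACP5, the tartrate-resistant acid phosphatase used to stain osteoclasts, had a UMI in 302 of the 307, and ATP6V0D2, the osteoclast form of a proton pump subunit, in 297. DCSTAMP, which cells need to fuse, was present in 268, and SIGLEC15, a sialic acid receptor that pairs with DAP12, in 200. CALCR, the calcitonin receptor, was present in 78 and OCSTAMP, a further fusion gene, in 72. Of the 6 genes, 112 osteoclasts had 3, 113 had 4, 63 had 5 and 19 had all 6.

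Summed per library and scaled to 1000000 UMIs (CPM), CTSK stood at 2548 and 1486 CPM in the 1797 libraries, against 589 and 3898 CPM in the ctrl libraries, so that the ctrl libraries held both the lowest and the highest level. ACP5 followed the same order, at 2306 and 1803 CPM in the 1797 libraries, against 1277 and 3023 CPM in the ctrl libraries. ATP6V0D2 stood at 1709.6 and 1638 CPM in the 1797 libraries, against 1318 and 2196 CPM in the ctrl libraries. CALCR was at 48.03 and 29.5 CPM in the 1797 libraries, against 80.6 and 167 CPM in the ctrl libraries, and SIGLEC15 at 45.01 and 48.1 CPM in the 1797 libraries, against 72.3 and 94.9 CPM in the ctrl libraries. DCSTAMP was at 104 and 197 CPM in the 1797 libraries, against 161 and 228 CPM in the ctrl libraries, and OCSTAMP at 12.8 and 11.4 CPM in the 1797 libraries, against 4.17 and 16.97 CPM in the ctrl libraries. The groups overlapped for 5 of these 7 genes; for CALCR and SIGLEC15 both 1797 libraries lay lower, as for 18.9% of all genes tested between the groups.

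Barcodes just inside and just outside the rule differed in genes that the rule did not use. The 112 osteoclasts with 3 of the 6 genes held 449 CPM of NFATC1 and 554 CPM of CKB, a creatine kinase that supplies ATP. The 246 barcodes with CTSK but 2 of the 6 genes, which the rule left out, held 150.3 and 237 CPM of the same genes. From 4 through 5 to 6 of the 6 genes, NFATC1 stood at 853, 969.5 and 933 CPM, and MMP9 at 706, 2719.7 and 2131 CPM. A further 71 barcodes met the rule but for CTSK, and 101 but for a lymphocyte gene; these held 574 and 639 CPM of NFATC1.

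The label was checked against markers of other cell types, summed per list. T and NK cell markers summed to 55.4 and 51.97 CPM in the 1797 libraries, against 69.5 and 70.01 CPM in the ctrl libraries, and B and plasma cell markers to 4.70 and 6.89 CPM in the 1797 libraries, against 26.4 and 14.9 CPM in the ctrl libraries; without CD3E and CD79B, which the rule sets to 0, the same lists held 366 to 666 CPM and 184 to 316 CPM in the other barcodes. In osteoclasts, 1 T and NK cell marker outside the rule exceeded the other barcodes in all 4 libraries, and 7 lay below them. NKG7, of the same list, had a UMI in 60.2% to 69.2% of osteoclasts. Macrophage markers summed to 814 and 737 CPM in the 1797 libraries, against 696 and 465 CPM in the ctrl libraries. Barcodes chosen as macrophages, partly by these same markers, held 2544 to 5839.98 CPM. The other barcodes held 482 and 608 CPM in the 1797 libraries and 389 and 294 CPM in the ctrl libraries, less than osteoclasts in each. Monocyte markers summed to 94.04 and 71.1 CPM in the 1797 libraries, against 154 and 181 CPM in the ctrl libraries, and dendritic cell markers to 39.3 and 26.1 CPM in the 1797 libraries, against 77.8 and 50.4 CPM in the ctrl libraries. Endothelial markers, of which PECAM1 gave most, summed to 282 and 312 CPM in the 1797 libraries, against 309 and 207 CPM in the ctrl libraries. In the other barcodes they summed to 443 and 139 CPM in the 1797 libraries, against 111 and 265 CPM in the ctrl libraries. Osteoclasts thus held more of them in 1797 library 2 and ctrl library 1, and less in the others. Chondrocyte markers summed to 17.1 and 25.5 CPM in the 1797 libraries, against 9.73 and 15.9 CPM in the ctrl libraries. Erythroid markers summed to 247 and 255 CPM in the 1797 libraries, against 253 and 61.00 CPM in the ctrl libraries. Of the erythroid gene HBB, 1 barcode gave 39.5% and 78.6% of the UMIs in the 1797 libraries, against 10.1% and 5.41% in the ctrl libraries. Mast cell markers summed to 5.71 and 9.44 CPM in the 1797 libraries, against 8.34 and 18.03 CPM in the ctrl libraries.

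Stromal markers stood apart in ctrl library 2, and neutrophil markers in library 2 of both groups. Osteoblast and stromal markers summed to 420.2 and 329 CPM in the 1797 libraries, against 484 and 2586 CPM in the ctrl libraries. In ctrl library 2, COL1A1, the bone collagen, was at 812 CPM, COL1A2 at 589 CPM and COL3A1 at 650.3 CPM, with UMIs in 100%, 93.8% and 87.5% of osteoclasts. A single osteoclast gave 46.2%, 44.8% and 50.6% of these UMIs. The matrix genes LUM and DCN were at 63.6 and 35.01 CPM there, RUNX2 and PDGFRB at 407 and 23.9 CPM, and the osteoblast genes ALPL, SP7 and BGLAP at 2.65, 2.12 and 0.530 CPM. Neutrophil markers summed to 157 and 599 CPM in the 1797 libraries, against 167 and 1813 CPM in the ctrl libraries. In the other barcodes they summed to 706 and 3994 CPM in the 1797 libraries, against 549 and 8551 CPM in the ctrl libraries. Library 2 was thus the higher of each group in osteoclasts and in the other barcodes.

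Osteoclasts carried most acid secretion genes at higher levels than macrophages and all other barcodes. Macrophages, their nearest relatives, were 359 barcodes with at least 3 of C1QA, C1QB, C1QC, MRC1, CD163 and MARCO, with CSF1R, and without CTSK; they met the same quality limits and lacked CD3E and CD79B. Of 19 acid secretion genes outside the rule, 18 were higher than in macrophages in all 4 libraries and 1 (ATP6V0A1) was lower in all 4, with a median log2 ratio of 1.44. Across all 20648 genes, 19% were higher than in macrophages in all 4 libraries and 12.4% lower. Among the 1644 genes of at least 100 CPM in osteoclasts of every library, 44.5% were higher than in macrophages in all 4, with a median of 0.16. The same 18 acid secretion genes were higher than in the other barcodes in all 4 libraries, where all genes gave 20.1% higher and 34.4% lower. No test was made, because the choice of cells by expression bears on every gene.

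SLC9B2, a sodium and proton exchanger, stood at 597 to 1296 CPM in osteoclasts, against 1.87 to 15.2 CPM in macrophages and 19.05 to 24.5 CPM in the other barcodes (chromosome 8, 117996777 to 118049430, Sscrofa11.1). Its neighbour and paralog SLC9B1 was at 165 to 201 CPM in osteoclasts, against 1.87 to 6.65 CPM in macrophages; whether reads were shared between the pair was not tested. TCIRG1, the proton pump subunit lost in many cases of human osteopetrosis, stood at 231 to 254 CPM in osteoclasts, against 49.97 to 96.7 CPM in macrophages and 24.5 to 39.8 CPM in the other barcodes. ATP6V1H, another pump subunit, was at 221 to 300.1 CPM in osteoclasts, against 42.95 to 74.3 CPM in macrophages. The pump is balanced by the chloride exchanger CLCN7, at 171 to 265 CPM in osteoclasts, against 46.7 to 81.5 CPM in macrophages. OSTM1, the partner of CLCN7, was at 80.6 to 184 CPM in osteoclasts, against 48.6 to 98.9 CPM in macrophages.

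Proteases and lysosome genes were mixed. Of 14 measured outside the rule, 3 were higher than in macrophages in all 4 libraries and 8 were lower. MMP9, a gelatinase, stood at 257 to 1815 CPM in osteoclasts, against 26.2 to 178 CPM in macrophages, and CTSD, an aspartic protease, at 496 to 944 CPM in osteoclasts, against 343 to 702 CPM in macrophages. CTSS, the cathepsin of antigen-presenting cells, was at 475 to 624 CPM in osteoclasts, against 807 to 1589 CPM in macrophages, and the lysosome membrane gene LAMP1 at 109 to 170.3 CPM in osteoclasts, against 435 to 585 CPM in macrophages. Osteoclasts thus exceeded macrophages in MMP9 and CTSD and lay below them in CTSS and LAMP1 in every library.

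Attachment and cytoskeleton genes held some of the widest gaps. ITGB3, the beta chain of the bone-binding integrin, was at 468 to 804 CPM in osteoclasts, against 21.5 to 56.3 CPM in macrophages and 23.3 to 36.3 CPM in the other barcodes, and its partner ITGAV at 1818 to 2535 CPM in osteoclasts, against 340.2 to 601 CPM in macrophages and 179 to 346 CPM in the other barcodes. DOCK5, an activator of Rac, stood at 673 to 884 CPM in osteoclasts, against 77.6 to 124 CPM in macrophages. In all, 12 of 21 sealing zone genes were higher than in macrophages in all 4 libraries and 5 lower. Among fusion genes outside the rule, 3 of 10 were higher and 2 lower; CD109, a membrane protein, was at 693 to 864 CPM in osteoclasts, against 29.9 to 168 CPM in macrophages.

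Receptors and transcription factors differed gene by gene. TNFRSF11A was at 173 to 302 CPM in osteoclasts, against 61.6 to 133 CPM in macrophages and 19.97 to 32.1 CPM in the other barcodes, whereas CSF1R, the receptor both cell types need, was at 619 to 846 CPM in osteoclasts, against 360.4 to 681 CPM in macrophages. Of 18 genes of RANK and CSF1 signalling, 3 were higher than in macrophages in all 4 libraries and 7 lower; of 9 co-stimulation genes outside the rule, 2 were higher and 4 lower. SRC, a kinase that organises the attached cell, was at 82.97 to 121 CPM in osteoclasts, against 10.2 to 21.6 CPM in macrophages. NFATC1 stood at 679.98 to 810.3 CPM in osteoclasts, against 46.7 to 113 CPM in macrophages and 105 to 167 CPM in the other barcodes. PPARGC1B, a coactivator that drives mitochondrial growth in osteoclasts, was at 97.1 to 115 CPM in osteoclasts, against 6.79 to 9.34 CPM in macrophages. In the list of 18 osteoclast transcription factors, 5 were higher and 7 lower, and MITF, shared with macrophages, was at 632 to 922 CPM in osteoclasts, against 442 to 969 CPM in macrophages.

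Genes that hold precursors back from the osteoclast fate were mostly lower, with 8 of 11 below macrophages in all 4 libraries and 1 above. IRF8 was at 51.4 to 87.3 CPM in osteoclasts, against 361 to 602 CPM in macrophages. The exception, ZEB1, stood at 617 to 1078 CPM in osteoclasts, against 145 to 355 CPM in macrophages. All 9 genes of MHC class II presentation were below both macrophages and the other barcodes in every library, with CD74 at 173 to 346 CPM in osteoclasts, against 2101 to 2781 CPM in macrophages and 809.8 to 1218 CPM in the other barcodes. Inflammatory genes were lower than in macrophages in 16 of 23 cases and immediate early genes in 24 of 25. Interferon response genes were lower in 12 of 28.

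Energy genes were higher than in macrophages in 15 of 18 cases in all 4 libraries. CKB was at 867 to 1561 CPM in osteoclasts, against 126 to 278 CPM in macrophages and 68.9 to 126 CPM in the other barcodes, and TFRC, the receptor for iron-laden transferrin, at 90.3 to 163 CPM in osteoclasts, against 21.1 to 30.3 CPM in macrophages. Cell cycle genes were higher in 15 of 20. Among 18 factors that act on osteoblasts, 5 were higher and 6 lower; SEMA4D, a semaphorin that restrains osteoblasts, was at 108 to 145 CPM in osteoclasts, against 6.65 to 19.4 CPM in macrophages.

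**Figure D1:**
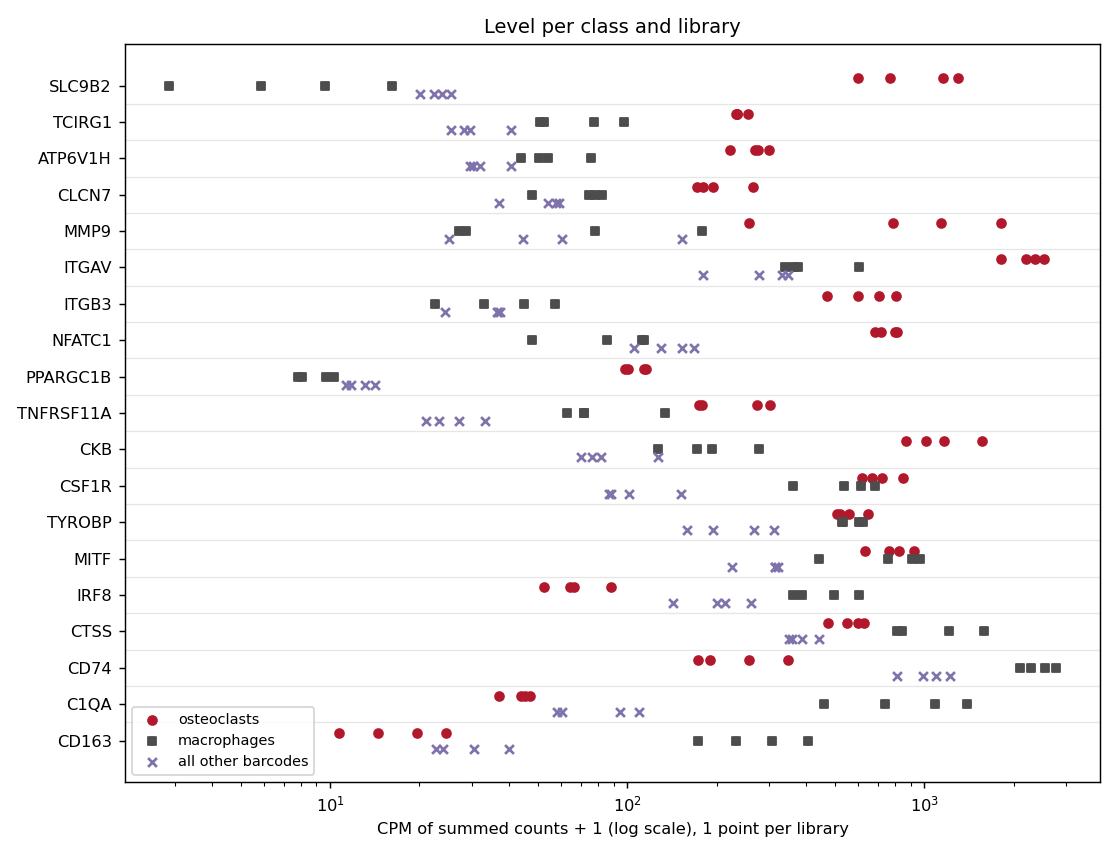
CPM + 1 of the summed counts (log axis) of 19 genes in osteoclasts (circles), macrophages (squares) and all other passing barcodes (crosses), with 1 point per library. The circles of SLC9B2, ITGB3, NFATC1 and PPARGC1B lie to the right of all squares and crosses, those of CSF1R, TYROBP and MITF mix with the squares, and those of IRF8, CD74, C1QA and CD163 lie to their left.

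The genes that set osteoclasts apart most from all other barcodes included several that are in none of the lists. After ATP6V0D2 and SLC9B2 came RIMBP2, which codes for a binding protein of synaptic vesicle release sites, at 405 to 578 CPM in osteoclasts, against 8.51 to 12.8 CPM in the other barcodes (chromosome 14, 24394793 to 24722237). GPR39, a zinc-sensing receptor, stood at 447 to 789.8 CPM in osteoclasts, against 19.9 to 31.5 CPM in the other barcodes. DGKI, a diacylglycerol kinase, was at 728 to 1002 CPM in osteoclasts, against 23.7 to 59.7 CPM in the other barcodes. ANKH, an exporter that raises pyrophosphate outside cells, was at 5014 to 6340.1 CPM in osteoclasts, against 217 to 483 CPM in the other barcodes. ST18, a zinc-finger transcription factor, was at 314 to 427 CPM in osteoclasts, against 10.2 to 26.3 CPM in the other barcodes, and SLC37A2, a sugar-phosphate transporter, at 876 to 1074 CPM in osteoclasts, against 45.9 to 108 CPM in the other barcodes. The 20 genes of largest ratio held 4 genes of the rule and reached log2 ratios of 3.84 to 5.46. Besides those named, they were PTPRN2, FAM109A, C4H1orf226, ITGB3, SLC9B1, AK5, CCNF, SYT6 and VWA5A.

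Set against macrophages alone, the largest ratios outside the rule again included RIMBP2 (405 to 578 CPM in osteoclasts, against 0.722 to 4.85 CPM in macrophages). FGD6, an activator of Cdc42, was at 129 to 320.4 CPM in osteoclasts, against 2.89 to 14.9 CPM in macrophages, and DENND1B, an activator of Rab proteins, at 1109 to 1468 CPM in osteoclasts, against 61.3 to 85.9 CPM in macrophages. The lowest ratios were those of PID1 (1.06 to 12.5 CPM in osteoclasts, against 106 to 238 CPM in macrophages) and of the complement gene C1QA (36.1 to 46.3 CPM in osteoclasts, against 458 to 1397 CPM in macrophages), which belongs to the macrophage rule. EPB41L3, a membrane skeleton gene, was at 10.9 to 23.6 CPM in osteoclasts, against 214 to 415 CPM in macrophages, and ARG1, the arginine-cleaving enzyme, at 5.56 to 112 CPM in osteoclasts, against 155 to 1632 CPM in macrophages; in ctrl library 2, 75.4% of ARG1 in osteoclasts came from 1 barcode.

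Because osteoclasts were deeper than other cells, every barcode was also reduced at random to 5000 UMIs, which left none out. Lymphocytes, with a median of 8148 to 9012 UMIs before this step, served as a background for stray RNA of genes they do not express themselves. NFATC1 then had a UMI in 73.5% and 84% of osteoclasts in the 1797 libraries, against 73.1% and 81.2% in the ctrl libraries. It had a UMI in 19.4% to 33.6% of macrophages and 39.7% to 49.04% of lymphocytes. Whether lymphocytes express NFATC1 themselves was not tested, so their share is no measure of its stray RNA. ITGB3 had one in 71.1% and 77.3% of osteoclasts in the 1797 libraries, against 65.4% and 77.1% in the ctrl libraries, in 10.7% to 12.9% of macrophages and 2.74% to 4.18% of lymphocytes. TNFRSF11A was detected in 42.2% and 58.7% of osteoclasts in the 1797 libraries, against 61.5% and 66.7% in the ctrl libraries, and in 2.63% to 3.94% of lymphocytes. Without the reduction the osteoclast shares were 77.1% and 90.7% against 80.8% and 87.5% for TNFRSF11A, and 87.95% and 95.3% against 88.5% and 93.8% for NFATC1. C1QA stood at 6.02% to 15.4% of osteoclasts, 50% to 84.1% of macrophages and 3.27% to 8.84% of lymphocytes. ACP5, a gene of the rule, was detected in 69.2% to 87.95% of osteoclasts and also in 13.6% to 23.7% of lymphocytes. CTSK, which the rule requires, was detected in 57.7% to 83.3% of osteoclasts and 14.8% to 24.99% of lymphocytes. Single UMIs of both genes thus occur in cells that are not osteoclasts.

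Osteoclasts differed widely among themselves in CTSK, from 8.19 to 72930.5 CPM per barcode. Median CTSK was 611 and 299 CPM in the 1797 libraries, against 113 and 2014 CPM in the ctrl libraries, which lay on either side of them. Barcodes of at least 1000 CPM numbered 37 of 83 and 50 of 150 in the 1797 libraries, against 5 of 26 and 32 of 48 in the ctrl libraries. Of all 307, 62 lay between 500 and 2000 CPM, near that limit, and 88 held fewer than 3 CTSK UMIs.

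Each library was then split into tertiles by CTSK CPM, to see which genes vary with it; this split was chosen after the values were seen and carries no test. The high tertile held more of the resorption genes and the low tertile more of the cell cycle genes, in all 4 libraries. Of 19 acid secretion genes, 18 were higher in the high tertile in all 4 libraries and 0 lower, with a median log2 ratio of 1.06. All 20 cell cycle genes were lower in the high tertile in all 4, with a median of -1.78. Of the 8712 genes of at least 10 CPM, 11.4% were higher and 29.5% lower in the high tertile in all 4. Of the 2343 genes of at least 100 CPM, these shares were 20.1% and 33%. Barcodes of the high tertile were shallower, with medians of 29819 and 34661 UMIs (1797) and 18633 and 35132 UMIs (ctrl), against 43204.5 and 54868 (1797) and 36789 and 47727.5 (ctrl) in the low tertile. Since the rule asks for 1 CTSK UMI, the lowest CTSK CPM can occur only in deep barcodes; the part of depth in these ratios was not tested. In such barcodes 1 or 2 CTSK UMIs cannot be told apart from the stray RNA seen in lymphocytes. The mitochondrial share was 5.18% to 6.59% in the high and 3.61% to 4.71% in the low tertile.

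MMP9 held 3063 and 2449 CPM (1797) and 541 and 3685 CPM (ctrl) in the high tertile, against 356 and 189 CPM (1797) and 181 and 191 CPM (ctrl) in the low tertile. SPP1, the bone matrix protein osteopontin, held 3824 and 2042 CPM (1797) and 11586 and 4764 CPM (ctrl) in the high tertile, against 703 and 521 CPM (1797) and 2048 and 222 CPM (ctrl) in the low tertile. CALCR, a gene of the rule, held 151 and 107 CPM (1797) and 226 and 372 CPM (ctrl) in the high tertile, against 3.86 and 3.45 CPM (1797) and 42.7 and 6.72 CPM (ctrl) in the low tertile. These genes were higher in the high tertile of every library, by log2 ratios of 1.53 to 4.20 for MMP9, 1.95 to 4.36 for SPP1 and 2.17 to 4.51 for CALCR. The same held for EDIL3, an integrin-binding matrix protein (2.93 to 4.21), the myosin MYO1D (2.12 to 4.37), the Rab regulator TBC1D4 (2.02 to 2.66), the lysosome glycoprotein CD68 (1.73 to 2.58), progranulin GRN (1.47 to 1.90) and CTSD (0.87 to 2.22).

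Among acid secretion genes, OSTM1 held 209.6 and 165 CPM (1797) and 151 and 342 CPM (ctrl) in the high tertile, against 75.6 and 62.8 CPM (1797) and 65.3 and 64.5 CPM (ctrl) in the low tertile. CLCN7 differed by log2 ratios of 0.50 to 1.32 and ATP6V1H by 0.41 to 0.96. Attachment genes were mixed: ITGAV was higher in the high tertile of all 4 libraries (0.45 to 1.28) and ITGB3 of 3 (-0.45 to 1.24), with 7 of 20 sealing zone genes higher in all 4 and 3 lower. NFATC1 was higher in the high tertile of 3 libraries and level in 1797 library 1, with ratios of -0.03 to 0.96. The co-stimulation list had 6 of 8 genes higher in all 4 libraries and 0 lower, with SYK, the kinase that reads these receptors, at 0.46 to 0.94.

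TOP2A, a topoisomerase of dividing cells, held 9.42 and 53.4 CPM (1797) and 0 and 3.49 CPM (ctrl) in the high tertile, against 321 and 372 CPM (1797) and 259 and 132 CPM (ctrl) in the low tertile. MKI67, the proliferation marker, held 4.71 and 49.1 CPM (1797) and 0 and 0 CPM (ctrl) in the high tertile, against 133 and 176 CPM (1797) and 324 and 61.8 CPM (ctrl) in the low tertile. PCLAF, a partner of the replication clamp, differed by -3.86 to -3.00, the nucleolar gene FBL by -2.11 to -1.43 and the hyaluronan synthase gene SHAS2 by -4.43 to -1.59. RUNX2, best known as the osteoblast transcription factor, held 112 and 46.7 CPM (1797) and 50.3 and 131 CPM (ctrl) in the high tertile, against 324 and 313 CPM (1797) and 234 and 744 CPM (ctrl) in the low tertile. The middle tertile had intermediate TOP2A in every library. MHC class II genes were lower or higher by library, with 0 of 8 going one way in all 4 and CD74 ranging from -3.21 to 1.22. Interferon response genes of the high tertile summed to 1786 CPM in ctrl library 1 and 217 to 278 CPM in the other libraries.

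The other lists were less uniform. Outside the rule, proteases and lysosome genes had 5 of 12 higher in all 4 and 2 lower, RANK and CSF1 signalling 6 of 18 higher in all 4 and 3 lower, osteoclast transcription factors 5 of 16 higher in all 4 and 3 lower, and restraining factors 2 of 10 higher in all 4 and 1 lower. Fusion genes had 3 of 8 higher in all 4 and 2 lower, factors towards osteoblasts 4 of 12 higher in all 4 and 0 lower, energy genes 3 of 17 higher in all 4 and 6 lower, immediate early genes 7 of 23 higher in all 4 and 2 lower, and inflammatory genes 4 of 16 higher in all 4 and 0 lower. Osteoblast and stromal markers summed to 117 to 1227 CPM in the high and 438 to 2899.8 CPM in the low tertile, highest in ctrl library 2 in both. RUNX2, whose values are given above, belongs to this list. It made up most of the low-tertile sums of 516 and 438 CPM in the 1797 libraries, so the sums do not measure stromal RNA alone.

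**Figure D2:**
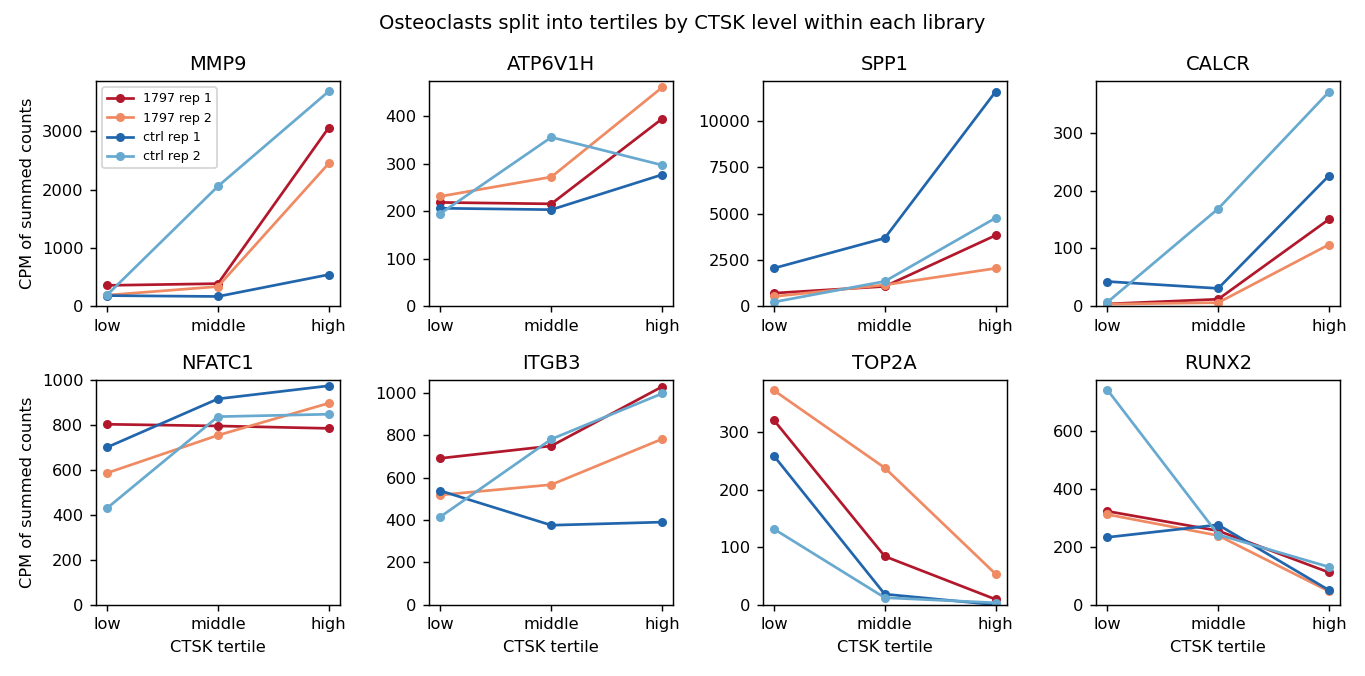
CPM of the summed counts of 8 genes in osteoclasts split into tertiles by CTSK level within each library, with 1 line per library. MMP9, SPP1 and CALCR end higher than they begin in all 4 libraries, TOP2A and RUNX2 end lower, and NFATC1 stays between 430.00 and 975 CPM throughout.

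Across the 307 barcodes, CTSK and MMP9 CPM had a Spearman correlation of 0.61, CTSK and NFATC1 of 0.14, and CTSK and total UMIs of -0.37. These barcodes share libraries and a scaling by depth, so the values are a description. Within single libraries the correlation of CTSK with MMP9 was 0.62 (n = 83) and 0.55 (n = 150) in the 1797 libraries, and 0.49 (n = 26) and 0.73 (n = 48) in the ctrl libraries.

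Osteoclasts made up a larger share of barcodes in the 1797 libraries than in the ctrl libraries. They were 1.46% (83 of 5700, interval 1.16% to 1.80%) and 2.58% (150 of 5808, interval 2.19% to 3.02%) of passing barcodes in the 1797 libraries, against 0.363% (26 of 7163, interval 0.237% to 0.531%) and 0.820% (48 of 5855, interval 0.605% to 1.09%) in the ctrl libraries, with exact 95% binomial intervals (Clopper-Pearson) that cover counting error only. The groups did not overlap. The means were 2.02% ± 0.797 in 1797 and 0.591% ± 0.323 in ctrl (SD, n = 2 each), a ratio of 3.41. The two-sided exact permutation test gave p = 0.333, the smallest that this test can give with 2 against 2 libraries.

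The ratio ran from 2.46 without 1797 library 2 to 5.56 without ctrl library 2. As a share of passing barcodes with CSF1R, osteoclasts were 8.05% and 8.98% in the 1797 libraries, against 1.68% and 3.25% in the ctrl libraries. Of osteoclasts and macrophages together they were 54.6% and 58.4% in the 1797 libraries, against 17.7% and 43.6% in the ctrl libraries, a ratio of 1.84. Macrophages by themselves were 1.21% and 1.84% of passing barcodes in the 1797 libraries and 1.69% and 1.06% in the ctrl libraries. Among barcodes above 20000 UMIs, osteoclasts were 7.55% and 11.4% in the 1797 libraries, against 2.20% and 3.40% in the ctrl libraries.

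The rule's refusal of lymphocyte genes removed 14 and 32 barcodes in the 1797 libraries and 29 and 26 in the ctrl libraries, more in ctrl library 1 than the 26 osteoclasts it kept. With these barcodes kept, an alternative chosen after seeing the data, the shares were 1.70% and 3.13% in the 1797 libraries, against 0.768% and 1.26% in the ctrl libraries, a ratio of 2.38. Lymphocyte barcodes (CD3E or CD79B) were 58.8% and 64.7% of passing barcodes in the 1797 libraries, against 77.1% and 63.4% in the ctrl libraries. Their part in the share was not tested, nor was the yield of the digestion, on which any share of barcodes depends.

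**Figure D3:**
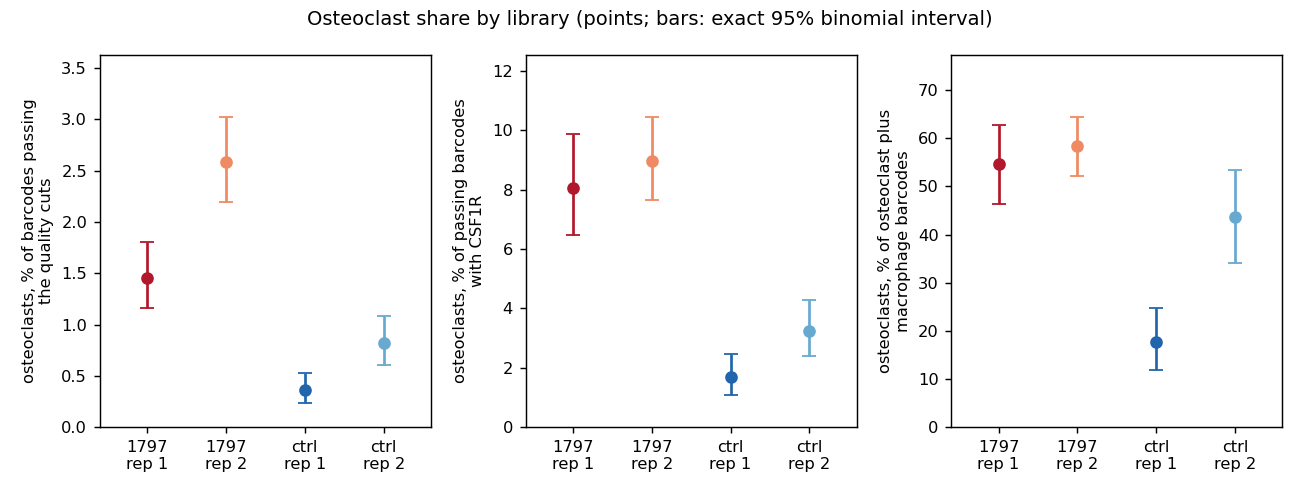
Osteoclasts in each library as a percentage of passing barcodes, of passing barcodes with CSF1R, and of osteoclast plus macrophage barcodes; points are libraries and bars exact 95% binomial intervals. Both 1797 libraries lie above both ctrl libraries in each panel, and the intervals of both 1797 libraries overlap that of ctrl library 2 in the last.

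No gene in osteoclasts differed between the 1797 and ctrl libraries at the threshold used. Counts were summed over the osteoclasts of each library, and the edgeR quasi-likelihood test with Benjamini-Hochberg adjustment called 0 of 10262 genes (0%) at an adjusted p of 0.05. At an unadjusted p of 0.05 there were 706 (6.88%), of which 269 (2.62%) were higher and 437 (4.26%) lower in 1797. DESeq2 called 17 (0.166%), 2 higher and 15 lower. Groups did not overlap in 18.2% of genes with the 1797 libraries higher and in 18.9% with them lower. Without ctrl library 1, the smallest, edgeR called 85 genes, 2 higher and 83 lower, from a fit in which the lone ctrl library is assumed to vary as the 1797 pair does; it called 0 without any other library. In simulated counts with the dispersion of these libraries, edgeR recovered 0 of 200 genes changed 2-fold and 118 of 200 changed 4-fold. A count of 0 called genes thus does not show that no gene differed 2-fold. The differences below are therefore values, not calls. A gene entered the test when it passed the count filter in any 2 libraries, so a weakly expressed gene may have entered only through the group in which it was higher; list counts cover the genes that entered.

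None of the resorption genes was called, and the medians of their lists lay near 0. Acid secretion genes were 11 higher and 8 lower, median 0.05 on the log2 scale among 19 tested, beside 5050 higher and 5212 lower and a median of -0.01 over all genes tested. SLC9B2 stood at 1296 and 597 CPM in the 1797 libraries, against 764 and 1153 CPM in the ctrl libraries (log2 fold change -0.02 ± 0.41 (SE), edgeR adjusted p = 0.997). TCIRG1 was at 254 and 234 CPM in the 1797 libraries, against 233 and 231 CPM in the ctrl libraries, and CLCN7 at 179 and 194 CPM in the 1797 libraries, against 171 and 265 CPM in the ctrl libraries. The 1797 libraries lay inside the ctrl range for CLCN7, on either side of it for SLC9B2 and just above it for TCIRG1. Without ctrl library 1 the acid secretion list had 6 higher and 13 lower of 19, median -0.13, and without ctrl library 2 16 higher and 3 lower of 19, median 0.33. Protease and lysosome genes were 8 higher and 5 lower, median 0.11 among 13, fusion genes 5 higher and 3 lower, median 0.07 among 8, and sealing zone genes 12 higher and 8 lower, median 0.11 among 20. Without ctrl library 1 the fusion list had 2 higher and 7 lower of 9, median -0.09, and the sealing zone list 8 higher and 12 lower of 20, median -0.04. Without ctrl library 2 they had 6 higher and 2 lower of 8, median 0.33, and 18 higher and 2 lower of 20, median 0.25. MMP9 was at 1137 and 787 CPM in the 1797 libraries, against 257 and 1815 CPM in the ctrl libraries, ordered as CTSK. ITGB3 stood at 804 and 598 CPM in the 1797 libraries, against 468 and 702 CPM in the ctrl libraries.

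In the lysosome list, GPNMB, a glycoprotein of osteoclasts and macrophages, stood at 885 and 523 CPM in the 1797 libraries, against 219.6 and 433 CPM in the ctrl libraries (log2 fold change 1.10 ± 0.41 (SE), edgeR adjusted p = 0.715). Both 1797 libraries were above both ctrl libraries, and the fullest barcode held 21.5% to 28.8% of its UMIs in each library. RANK and CSF1 signalling genes were 8 higher and 10 lower, median -0.08 among 18. TNFRSF11A, the receptor RANK itself, stood at 173 and 177 CPM in the 1797 libraries, against 302 and 272 CPM in the ctrl libraries (log2 fold change -0.69 ± 0.17 (SE), edgeR adjusted p = 0.715), so both 1797 libraries were lower. In the co-stimulation list, 3 higher and 5 lower, median -0.24 among 8, the phospholipase gene PLCG2 was at 52.4 and 59.3 CPM in the 1797 libraries, against 106 and 75.8 CPM in the ctrl libraries (log2 fold change -0.66 ± 0.24 (SE), edgeR adjusted p = 0.715), again lower in both 1797 libraries.

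Osteoclast transcription factors were 10 higher and 6 lower, median 0.08 among 16, and those that restrain osteoclasts 6 higher and 5 lower, median 0.10 among 11. NFATC1 stood at 796 and 717 CPM in the 1797 libraries, against 810.3 and 679.98 CPM in the ctrl libraries (log2 fold change 0.05 ± 0.16 (SE), edgeR adjusted p = 0.978), with overlapping groups. PRDM1, the repressor Blimp1 that silences restraining factors, stood at 329 and 259.9 CPM in the 1797 libraries, against 178 and 208 CPM in the ctrl libraries (log2 fold change 0.62 ± 0.21 (SE), edgeR adjusted p = 0.715), higher in both 1797 libraries.

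Factors that osteoclasts send towards osteoblasts were 3 higher and 10 lower, median -0.25 among 13; without ctrl library 2 they were 9 higher and 5 lower, median 0.07. SPP1 stood at 1695 and 1094 CPM in the 1797 libraries, against 4522 and 1939 CPM in the ctrl libraries (log2 fold change -1.18 ± 0.41 (SE), edgeR adjusted p = 0.715); both 1797 libraries were lower, and ctrl library 1 was the highest. EFNB2, an ephrin that osteoblasts read through EPHB4, was at 6.05 and 3.59 CPM in the 1797 libraries, against 25.02 and 14.9 CPM in the ctrl libraries (log2 fold change -2.01 ± 0.47 (SE), edgeR adjusted p = 0.715), from 12 and 16 barcodes in 1797 and 6 and 12 in ctrl. The 1797 libraries alone, where EFNB2 was lower, would not have let it pass the count filter. SEMA4D was at 126 and 108 CPM in the 1797 libraries, against 117 and 145 CPM in the ctrl libraries, with overlapping groups.

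Of 27 interferon response genes with any count, 7 were higher and 20 lower in 1797, with a median of -0.51, beside 8874 higher and 7511 lower of all genes fitted without the filter. The 16 that passed the filter were all lower, with a median of -0.71. Without ctrl library 1 the list had 3 higher and 16 lower of 19, median -0.23, and without ctrl library 2 3 higher and 17 lower of 20, median -1.01. ISG15, a ubiquitin-like interferon product, was at 6.38 and 9.14 CPM in the 1797 libraries, against 66.7 and 13.3 CPM in the ctrl libraries (log2 fold change -2.19 ± 0.75 (SE), edgeR adjusted p = 0.715), and 1 barcode gave 60.4% of its UMIs in ctrl library 1. IFI6, an interferon-induced mitochondrial protein, was at 14.4 and 25.2 CPM in the 1797 libraries, against 69.5 and 39.8 CPM in the ctrl libraries (log2 fold change -1.38 ± 0.41 (SE), edgeR adjusted p = 0.715). IFI44L stood at 7.72 and 8.24 CPM in the 1797 libraries, against 29.2 and 12.7 CPM in the ctrl libraries. In ctrl library 1, 1 barcode gave 42% of the IFI6 UMIs and 1 gave 52.4% of the IFI44L UMIs. In the other libraries the fullest barcode gave 13.1% to 34.9% and 9.09% to 17.4%. IFIT2, which binds foreign RNA, was at 2.35 and 2.85 CPM in the 1797 libraries, against 5.56 and 8.49 CPM in ctrl. IFIT2 passed the filter only through ctrl. MX2, an antiviral GTPase, was at 8.40 and 23.96 CPM in the 1797 libraries, against 114 and 19.6 CPM in the ctrl libraries, where the groups overlapped and 1 barcode gave 68.3% of its UMIs in ctrl library 1. All 28 genes of the list summed to 258 and 312 CPM in 1797, against 712 and 380.3 CPM in ctrl.

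Immediate early and heat shock genes, which tissue digestion also induces, were 3 higher and 22 lower, median -0.34 among 25; without ctrl library 2 they were 8 higher and 17 lower of 25, median -0.14. JUN, a subunit of AP-1, was at 329 and 224 CPM in the 1797 libraries, against 403 and 453 CPM in the ctrl libraries (log2 fold change -0.62 ± 0.24 (SE), edgeR adjusted p = 0.715), and IER2 at 17.5 and 13.2 CPM in the 1797 libraries, against 29.2 and 33.9 CPM in the ctrl libraries (log2 fold change -1.05 ± 0.31 (SE), edgeR adjusted p = 0.715). DNAJB1, a heat shock co-chaperone, stood at 171 and 70.4 CPM in the 1797 libraries, against 207 and 372 CPM in the ctrl libraries (log2 fold change -1.28 ± 0.50 (SE), edgeR adjusted p = 0.715). All 3 were lower in both 1797 libraries. The part of handling time in these levels was not tested. Inflammatory genes were 8 higher and 9 lower, median -0.02 among 17, but 5 higher and 14 lower of 19, median -0.36 without ctrl library 1 and 16 higher and 3 lower of 19, median 0.60 without ctrl library 2. The cytokine TNF was at 1.01 and 2.40 CPM in the 1797 libraries, against 6.95 and 7.43 CPM in the ctrl libraries (log2 fold change -1.95 ± 0.61 (SE), edgeR adjusted p = 0.715); it passed the filter only through ctrl, where 1 barcode gave 80% and 71.4% of its UMIs. MHC class II genes were 3 higher and 5 lower, median -0.14 among 8.

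Energy and iron genes were 14 higher and 3 lower, median 0.30 among 17, of which 7 did not overlap with the 1797 libraries higher, beside the 18.2% of all genes. With a library left out they ranged from 12 to 16 higher of 17. PGK1, a glycolysis enzyme, was at 108 and 124 CPM in the 1797 libraries, against 73.7 and 86.5 CPM in the ctrl libraries (log2 fold change 0.54 ± 0.22 (SE), edgeR adjusted p = 0.715), and ENO1, another, at 906 and 979.8 CPM in the 1797 libraries, against 729.6 and 756 CPM in the ctrl libraries. FTH1, the iron-storing ferritin chain, stood at 4966 and 3022 CPM in the 1797 libraries, against 3099 and 2236 CPM in the ctrl libraries, with overlapping groups. CKB was at 1013 and 1167 CPM in the 1797 libraries, against 867 and 1561 CPM in the ctrl libraries, with overlapping groups. Cell cycle genes were 18 higher and 2 lower, median 0.30 among 20, but 8 higher and 12 lower of 20, median -0.27 without ctrl library 2 and 20 higher and 0 lower of 20, median 1.03 without ctrl library 1. TUBA1B, a tubulin, stood at 678 and 687 CPM in the 1797 libraries, against 466 and 307 CPM in the ctrl libraries (log2 fold change 0.86 ± 0.22 (SE), edgeR adjusted p = 0.715), higher in both 1797 libraries. TOP2A was at 166 and 251 CPM in the 1797 libraries, against 147 and 56.8 CPM in the ctrl libraries, and MKI67 at 82.3 and 121 CPM in the 1797 libraries, against 183 and 29.2 CPM in the ctrl libraries; in ctrl library 1, 1 barcode gave 68.2% of the MKI67 UMIs.

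With each library left out in turn, the median of further lists also changed sign. It ran from -0.47 to 0.19 for MHC class II genes, from -0.30 to 0.14 for co-stimulation genes, from -0.09 to 0.03 for RANK and CSF1 signalling, and from -0.01 to 0.40 for restraining factors. It kept its sign in the protease, osteoclast transcription factor, energy, interferon and immediate early lists.

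Markers of other cell types also stood at different levels. Osteoblast and stromal markers in osteoclasts were 0 higher and 6 lower, median -3.29 among 6, and neutrophil markers 1 higher and 6 lower, median -2.02 among 7. Both 1797 libraries lay below both ctrl libraries for 2 of the 6 and 1 of the 7, beside 18.9% of all genes tested. Both sums were highest in ctrl library 2, at 2586 and 1813 CPM, where 1 barcode gave 46.2% of COL1A1 and 1 gave 40.2% of S100A9. Monocyte markers were 2 higher and 5 lower, median -1.27 among 7, while macrophage markers were 6 higher and 2 lower, median 0.43 among 8. No marker was called. At 0 in the osteoclasts of all 4 libraries were CLDN5 of the endothelial and CLEC9A of the dendritic cell markers, and, by the rule, CD3E and CD79B. The part of such RNA in the differences between groups was not tested.

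**Figure D4:**
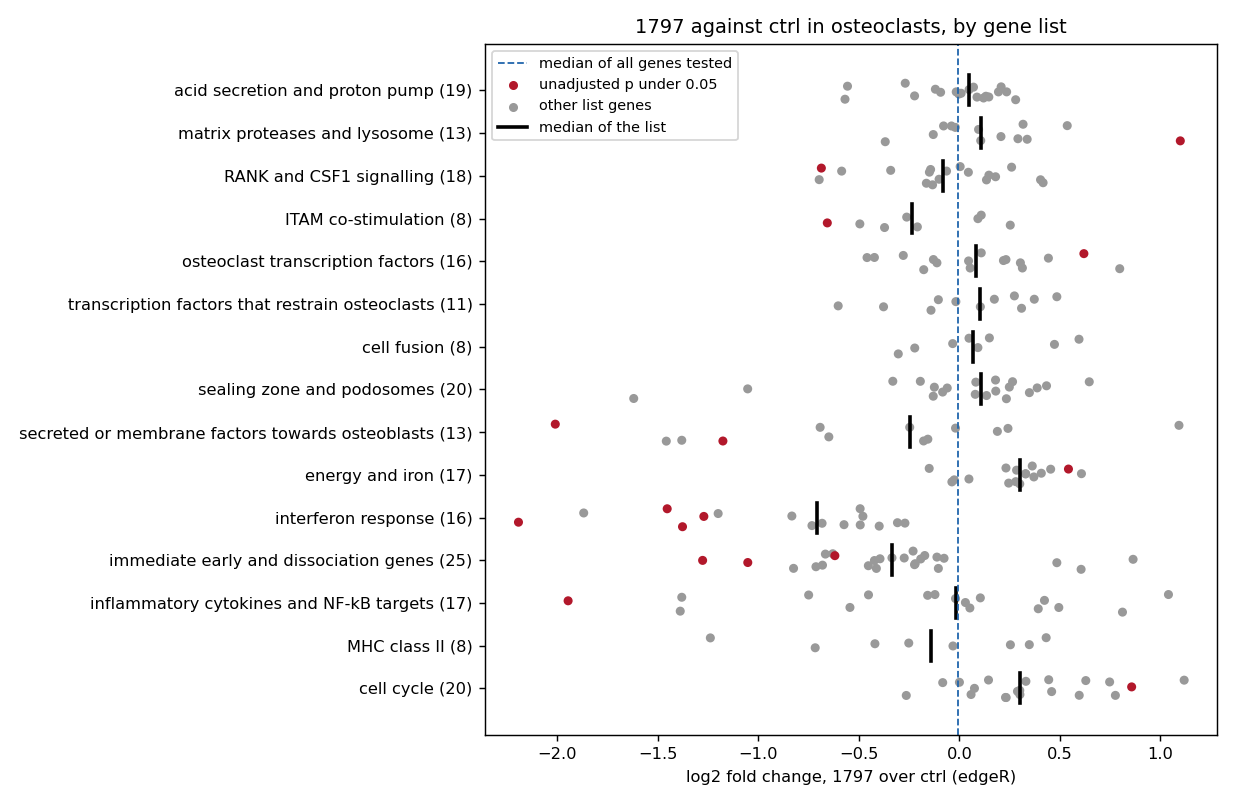
Log2 fold change of 1797 over ctrl in osteoclasts for each tested gene of 15 lists, with the number tested in brackets; black bars mark list medians, the dashed line the median of all genes, and red points an unadjusted edgeR p under 0.05. The 16 interferon response genes that passed the count filter lie below 0 (7 of 27 lie above it without the filter), with a median of -0.71, while the acid secretion genes have a median of 0.05.

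Among genes of at least 50 CPM whose groups did not overlap, the 8 of smallest unadjusted p were taken each way. Of those lower in 1797, NAAA, a lysosomal enzyme that breaks down fatty acid amides, stood at 46.7 and 45.1 CPM in the 1797 libraries, against 140.4 and 147 CPM in the ctrl libraries (chromosome 8, 71573783 to 71603256), log2 fold change -1.63 ± 0.20 (SE), edgeR adjusted p = 0.631. It was detected in 55.4% and 66% of osteoclasts in 1797, against 73.1% and 83.3% in ctrl. PRKG1, the cGMP-dependent kinase, stood at 30.6 and 36.7 CPM in the 1797 libraries, against 178 and 351 CPM in the ctrl libraries (chromosome 14, 97558531 to 98793080), log2 fold change -2.97 ± 0.39 (SE), edgeR adjusted p = 0.703, and 1 barcode gave 53.1% of it in ctrl library 1. Both lay lower in the 1797 libraries, and DESeq2 called both, at adjusted p of 1.02e-04 and 4.93e-09.

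CDH13, a cadherin without a transmembrane part, was at 36.3 and 51.2 CPM in the 1797 libraries, against 129 and 123 CPM in the ctrl libraries (DESeq2 adjusted p = 0.0138), with 56.99% of its UMIs in ctrl library 1 from 1 barcode. TIMP3, an inhibitor of matrix proteases, was at 30.6 and 26.5 CPM in the 1797 libraries, against 90.3 and 66.3 CPM in the ctrl libraries; 1 barcode gave 50.4% of it in ctrl library 2. NEDD4L, a ubiquitin ligase, was at 152 and 149 CPM in the 1797 libraries, against 284 and 301 CPM in the ctrl libraries, with 65.7% from 1 barcode in ctrl library 1. The other 3 were MICAL3 and JMY, which act on actin, and FAM107B, with log2 fold changes of -1.26, -1.13 and -1.56. All 8 had an edgeR adjusted p of 0.631 to 0.715.

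Of the 8 higher in 1797, SLA-1, a class I histocompatibility gene, stood at 419 and 373 CPM in the 1797 libraries, against 215 and 159 CPM in the ctrl libraries (log2 fold change 1.12 ± 0.20 (SE), edgeR adjusted p = 0.715; DESeq2 adjusted p = 0.0225). It belongs to a family of near-identical genes whose reads can be shared, so its level is uncertain. SYT6, a synaptotagmin among the 20 genes that set osteoclasts apart most, stood at 197 and 179 CPM in the 1797 libraries, against 111 and 100.2 CPM in the ctrl libraries (log2 fold change 0.85 ± 0.18 (SE), edgeR adjusted p = 0.715). FABP5, a fatty acid carrier, was at 617 and 628 CPM in the 1797 libraries, against 372 and 407 CPM in the ctrl libraries, and COL4A3BP, which carries ceramide between membranes, at 516 and 513 CPM in the 1797 libraries, against 281 and 328 CPM in the ctrl libraries. SLC17A5, the lysosomal exporter of sialic acid, was at 95.1 and 75.04 CPM in the 1797 libraries, against 37.5 and 44.02 CPM in the ctrl libraries. The nuclear genes KPNA2 and NPM3 and the pyruvate dehydrogenase component PDHX had log2 fold changes of 1.36, 1.34 and 0.95. All 8 had an edgeR adjusted p of 0.715.

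**Figure D5:**
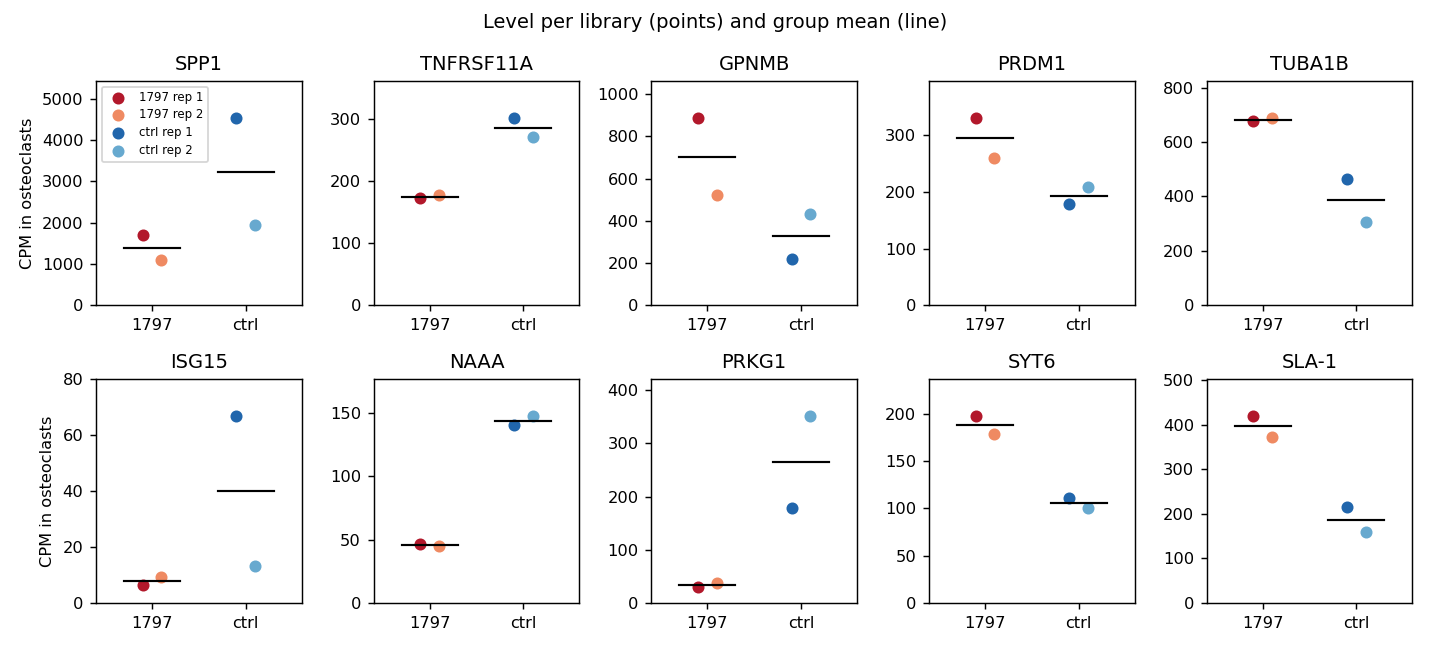
CPM of 10 genes in the osteoclasts of each library (points) with the group means (lines), 1797 to the left of ctrl. Both 1797 points lie below both ctrl points for SPP1, TNFRSF11A, ISG15, NAAA and PRKG1 and above them for GPNMB, PRDM1, TUBA1B, SYT6 and SLA-1; ctrl library 1 alone is high for ISG15, at 66.7 CPM.

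Whether the difference between peptides was itself different in osteoclasts and macrophages was tested as an interaction. It was called by edgeR for 0 of 10664 genes (0%), with 556 (5.21%) at an unadjusted p of 0.05; without ctrl library 1, ctrl library 2 or 1797 library 1 the calls were 199, 95 and 5. In macrophages alone edgeR called 0 of 9393 genes (0%), with 632 (6.73%) at an unadjusted p of 0.05. Both cell types come from the same libraries. NAAA in macrophages was at 47.6 and 46.5 CPM in the 1797 libraries, against 49.97 and 37.4 CPM in the ctrl libraries, and its interaction was -1.73 ± 0.35 on the log2 scale (SE, edgeR adjusted p = 0.493). SLA-1 in macrophages was at 1247 and 1193 CPM in the 1797 libraries, against 407 and 495 CPM in the ctrl libraries, with an interaction of -0.30 ± 0.31 (SE, edgeR adjusted p = 0.949). Immediate early genes in macrophages were 1 higher and 24 lower of 25, median -0.51, and interferon genes 5 higher and 15 lower of 20, median -0.38.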

How the data were processed

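The authors deposited unnormalized UMI counts, 1 matrix of genes by barcodes per library, with 20648 genes and 87844389 to 98758412 UMIs per library. Cell Ranger is named as the counting tool, in version 5.0.0 per the submitters' processing notes and in version 7.0.1 per the file headers; the build was Sscrofa11.1. Filters before deposit are not given in the sources used here. Coordinates are from a RefSeq table of the same build, counted from 1.

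Osteoclasts were chosen by expression as the report states. The rule, the lists (15 of pathways, 12 of markers; 338 of 351 genes present) and the tests were chosen with earlier results of these data known. Counts were summed per library and class and tested with edgeR 4.0.16 (TMM, filterByExpr, quasi-likelihood, no covariate), or DESeq2 1.42.0 as an alternative; the scripts were tested on simulated data. Genes named from the contrast needed an adjusted p of 0.05 and an absolute log2 fold change of 1; as none passed, the 8 of smallest unadjusted p each way were taken. List members named were up to 6 of highest CPM and those at unadjusted p of 0.05; PPARGC1B, SRC and TFRC were named after their values were seen. A gene of the lists is not reported here. Ratios between classes are log2 of CPM + 1, and those between tertiles use an offset of 10 CPM. Scrublet in scanpy 1.11.5 used an expected doublet rate of 0.1. Intervals cover counting error only.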

Additional observations from a re-analysis of the deposited data

How the results depend on the processing

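The osteoclast share was higher in 1797 under all 16 alternatives tried, with groups apart in each. Those that left out a library could not reverse the order, since the groups did not overlap with all libraries in. Removal of doublet calls took out no osteoclast and changed the denominators only. The log2 ratio was 1.77, from 1.30 to 2.48 with a library left out and 0.88 over osteoclasts and macrophages alone. The count of genes called in osteoclasts, 0 with edgeR, was 208 without the filter on low counts (21 higher, 187 lower, of 16385 tested), 17 with DESeq2, and 0 to 85 with a library left out. The interaction went from 0 called genes to 89 without the filter and 0 to 199 with a library left out. Without the filter, more genes near zero counts are tested; the cause of the other differences was not tested. Other size factors, thinning to 5000 UMIs, removal of doublet calls, stricter and looser rules, other UMI and mitochondrial limits, and a rule without CTSK or with lymphocyte genes, the last 2 added after seeing the data, left the count at 0. Of 16 genes named from the contrast, 1 changed sign: TIMP3 had a log2 fold change of 0.83 under the stricter rule.

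The labels do not tell whether replicate numbers pair the libraries. Over 10262 genes in osteoclasts, the difference of library 1 minus 2 in 1797 and in ctrl correlated at -0.0241. In the other barcodes, neutrophil markers summed to 706 (1797) and 549 CPM (ctrl) in library 1, against 3994 and 8551 CPM in library 2. Erythroid markers there summed to 2013 and 1493 CPM in library 1, against 606 and 308 CPM in library 2. Some other lists, such as chondrocyte markers, went opposite ways in the groups. Whether libraries of the same number share a batch was not tested. With the replicate number as a block edgeR called 0 genes, with 494 at an unadjusted p of 0.05.

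Depth limits the ctrl side most: 26 osteoclasts with 719528 UMIs in ctrl library 1, where a count of 0 allows up to 4.17 CPM. A gene carried by 1 barcode there can set the group's level. Numbers of nuclei, cell size and the animals behind each library were not given.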

Other observations

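The 17 genes that DESeq2 called between the groups were looked at after their values were seen. IL33, an alarm cytokine, was 1 of the 2 higher in 1797, the other being SLA-1. IL33 stood at 30.2 and 38.9 CPM in the 1797 libraries, against 2.78 and 0 CPM in the ctrl libraries, and had a UMI in 15 and 45 osteoclasts in 1797, against 2 and 0 in ctrl (DESeq2 adjusted p = 0.00577, edgeR adjusted p = 0.715); it passed the count filter only through the 1797 libraries, where it is higher, and its p is no independent support. In ctrl library 2 the count of 0 allows up to 1.59 CPM, and in the 1797 libraries the fullest barcodes held 22.2% and 17.3% of its UMIs.

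PDZD2, a PDZ domain gene, was among the 15 genes lower in 1797. It was at 4.70 and 3.74 CPM in the 1797 libraries, against 62.5 and 22.8 CPM in the ctrl libraries. It had a UMI in 14 and 18 osteoclasts in 1797, against 13 and 21 in ctrl (DESeq2 adjusted p = 0.00123, edgeR adjusted p = 0.715). The 1797 libraries alone would not have let PDZD2 pass the count filter, so its p is no independent support. GAB1, an adaptor of growth factor receptors, was at 4.03 and 2.40 CPM in the 1797 libraries, against 30.6 and 45.6 CPM in ctrl. It had a UMI in 7 and 9 osteoclasts in 1797, against 6 and 15 in ctrl, and passed the filter only through ctrl. The fullest barcode gave 41.7% and 31.25% of GAB1 UMIs in the 1797 libraries, against 50% and 40.7% in the ctrl libraries. IL18R1, a receptor chain for interleukin 18, was at 0.336 and 0.899 CPM in the 1797 libraries, against 26.4 and 18.6 CPM in the ctrl libraries; 1 barcode gave 78.9% and 80% of its UMIs in ctrl libraries 1 and 2, and it passed the filter only through them. For SOX5, a transcription factor of cartilage and other tissues, the values were 15.1 and 6.59 CPM in 1797, against 56.98 and 71.1 CPM in ctrl, with 82.9% from 1 barcode in ctrl library 1. ADAMTS3, a procollagen protease, had a UMI in 0 and 0 osteoclasts in 1797, against 1 and 6 in ctrl, and 1 barcode held 78.3% of its UMIs in ctrl library 2; it too passed the filter only through ctrl. The part of these single barcodes in the DESeq2 calls was not tested.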
